A study of Rattus norvegicus with 10 samples.

Results

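Rab small GTPase genes were followed on expression arrays of prefrontal cortex, 1 array for each of 10 male rats of the inbred Lewis strain. The members were the genes whose only symbol in the platform annotation was Rab, a number and at most 1 letter. Rab3a, Rab3b, Rab3c and Rab3d were left out, and each gene was represented by the probe set of highest mean over the arrays. This gave 52 genes of 14217 named on the array. Of these, 43 had a mean above the filter of 3.99 log2 that kept the upper 50% of probe sets by mean level (82.7% of the members, against 59.7% of all named genes). The remaining 9 did not.

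The tissue was frontal areas Fr1 and Fr2 anterior to bregma without the olfactory bulb. The rats weighed 200 to 250 g and came from 40 tested for behaviour. No treatment and no mutation is stated for them, and they were killed 6 days after the last test. They were therefore taken as 1 group of separate animals. Every rat has scores in the labels for locomotion, for sugar feeding, for the acoustic startle response and for prepulse inhibition, in which a weak sound shortly before a loud one dampens the startle. A plus maze score is given for 7 rats. No age and no unit of a score is given in the sources used here. The design asks how brain mRNA levels vary with behaviour among animals of 1 strain, and each score was therefore treated as a number measured on each rat.

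Rab proteins are small GTPases that mark membranes for transport. In the GTP-bound state, set by exchange factors, a Rab sits on a membrane through prenyl groups at its C terminus and recruits effectors such as motors and tethers. GTPase-activating proteins switch it off, and GDP dissociation inhibitors draw it back into the cytosol. Neurons depend on these proteins for receptor recycling, axonal transport and lysosomal turnover, and Rab3 proteins, not included here, act at the synaptic vesicle.

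The arrays had medians of 3.91 to 4.02 log2. All 7 measured cortical excitatory neuron markers of 8 listed and all 6 neuronal markers passed the filter, and 1 of 4 measured olfactory bulb markers did. Of 14 measured striatal projection neuron markers 12 passed, without Adora2a and Tac1, and their summed linear level ran from 11596 to 27445, highest in rats 7, 4 and 10. Of 14 measured myelin markers 13 passed, without Gjb1, with a summed level of 33091 to 59122. Of 6 measured markers of meninges and fibroblasts 5 passed, without Lum. Their summed level ran from 947 in rat 8 to 4944 in rat 9, with 3787 in rat 3, and this list was not used in any model. The mean of the spike-in controls was 10.57 to 11.53 log2. In dissected tissue, fewer cells of a type and less RNA per cell cannot be told apart.

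To show the regulatory DNA of the family, the 250 bases before the start of transcription were read from RefSeq's promoter windows of the GRCr8 assembly. All 52 members matched a RefSeq gene, and 41 had a window, 42 in all since Rab30 had 2. The GC box, the letters GGGCGG or their complement CCGCCC on either strand, stood in 32 of 42 windows (76.2%). It stood in 30.5% of all 33469 windows and in 59.7% of the 7985 windows of tested genes. The TATA box letters TATAAA, searched on both strands, were found in 0 of 42 windows, against 12.9% of all windows and 6.17% of those of tested genes. Median GC content was 63.0% for the members, 51.2% over all windows and 60.8% for tested genes. The letters CCAAT were in 33.3% of member windows and 35.3% of those of tested genes, CACGTG in 7.14% and 8.32%, and TGACGTCA in 2.38% and 3.03%, each on both strands. None of the 5 motifs contains another, and a match is a description of letters only.

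Windows of 4 members are printed 5′ to 3′ on the gene's strand, with GC boxes in capitals. They belong to the 2 members of largest and the 2 of smallest spread between rats among those with 1 window, chosen after their values were seen, so that the start regions can be set beside the levels that follow. Rab34 lies on the plus strand at chr10:63581292-63581541 (GRCr8), Rab9b on the minus strand at chrX:105023873-105024122, Rab12 on the minus strand at chr9:113953617-113953866, and Rab7b on the plus strand at chr13:45673195-45673444.
Rab34: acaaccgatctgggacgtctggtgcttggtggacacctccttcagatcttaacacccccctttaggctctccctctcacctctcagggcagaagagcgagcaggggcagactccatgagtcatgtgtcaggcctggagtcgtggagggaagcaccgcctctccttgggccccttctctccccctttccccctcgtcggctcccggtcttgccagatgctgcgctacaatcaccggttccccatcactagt
Rab9b: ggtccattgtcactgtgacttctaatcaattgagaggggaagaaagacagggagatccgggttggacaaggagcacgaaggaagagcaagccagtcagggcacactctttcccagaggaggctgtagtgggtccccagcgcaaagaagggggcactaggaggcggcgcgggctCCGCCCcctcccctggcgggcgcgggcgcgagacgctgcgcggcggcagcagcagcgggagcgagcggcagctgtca
Rab12: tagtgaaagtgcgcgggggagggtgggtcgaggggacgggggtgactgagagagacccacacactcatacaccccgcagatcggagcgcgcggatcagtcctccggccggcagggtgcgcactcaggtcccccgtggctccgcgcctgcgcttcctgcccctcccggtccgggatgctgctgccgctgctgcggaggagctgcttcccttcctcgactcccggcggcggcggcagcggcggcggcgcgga
Rab7b: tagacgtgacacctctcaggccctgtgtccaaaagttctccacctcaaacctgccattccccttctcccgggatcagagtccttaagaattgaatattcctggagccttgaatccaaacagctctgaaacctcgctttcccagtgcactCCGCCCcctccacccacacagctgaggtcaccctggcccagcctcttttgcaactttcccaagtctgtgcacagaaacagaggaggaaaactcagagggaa
The variable member Rab9b and Rab7b, of small spread, held 1 GC box each, and the variable Rab34 and the stable Rab12 held 0. The mean of Rab7b, 4.01 log2, lay at the filter, so its small spread does not show a stable level. GC content was 60.4% for Rab34, 65.2% for Rab9b, 72.8% for Rab12 and 53.2% for Rab7b.

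Most Rab genes differed little between rats. The median SD over the 43 members above the filter was 0.13 log2, against 0.12 over all 8483 tested genes with 1 probe set each. The median span from the lowest to the highest rat was 1.31-fold for the members and 1.32-fold for all tested genes. A span under 1.5-fold was seen in 34 of 43 members (79.1%) and in 77.9% of all tested genes. Over 2-fold were 2 of 43 members and 370 of 8483 tested genes. By these summaries the family spread between rats about as much as tested genes did.

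**Figure D1:**
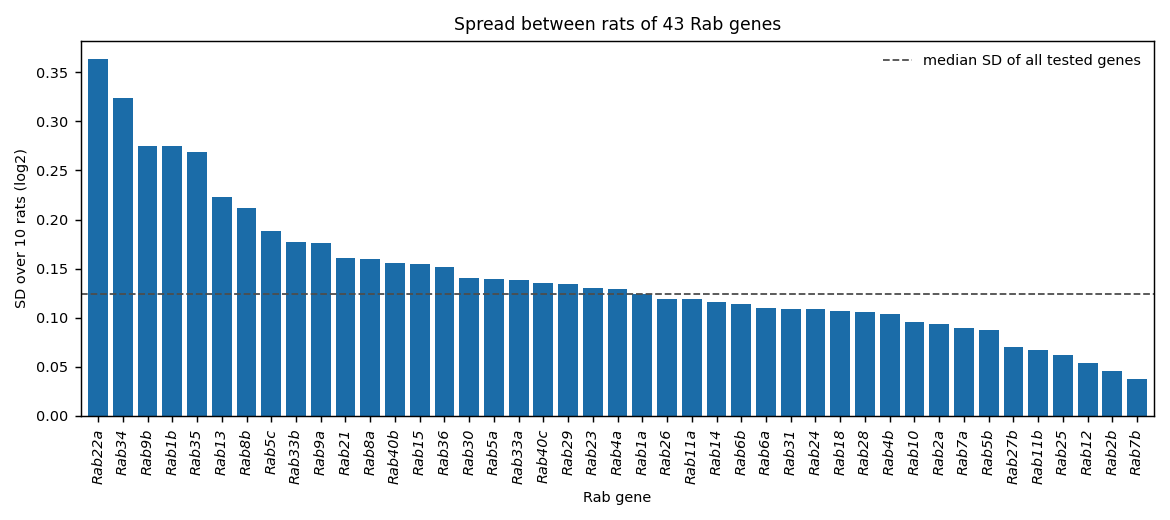
Bars give the SD of each of 43 Rab genes over 10 rats on the log2 scale, in order of size, and the dashed line is the median SD of all tested genes, 0.12. Rab22a stands at 0.36 and Rab34 at 0.32, and Rab7b at 0.04.

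Rab22a, of early endosomes, had the largest spread of the family, with a lowest value of 6.08, a median of 6.90 and a highest of 7.33 log2 (SD 0.36, n = 10). It was lowest in rat 1 and highest in rat 3, a 2.37-fold span, and 94.1% of tested probe sets had a smaller SD. The other 2 Rab22a probe sets spanned 1.51-fold and 1.43-fold, and the first of them was highest in rat 1, where the chosen one was lowest. The large span of Rab22a thus holds for 1 of its 3 probe sets.

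Rab34, which acts at the Golgi and in the formation of cilia, ran from 4.51 through a median of 5.09 to 5.61 log2 (SD 0.32, n = 10). Rat 1 was lowest, and rats 7 and 10 stood together at 5.61, apart from the other rats at 4.51 to 5.13. Rats 7, 4 and 10 had the highest striatal marker levels, and Rab34 in rat 4 was 5.09, at the median. Its other probe set lay below the filter with a mean of 2.15.

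Rab9b, a paralog of the late endosomal Rab9a encoded on the X chromosome, ran from 8.03 in rat 3 through a median of 8.23 to 8.98 in rat 7 (SD 0.28). Rab1b, which works in transport from the endoplasmic reticulum to the Golgi, ran from 8.12 in rat 1 through 8.69 to 9.02 in rat 10 (SD 0.27). All 4 Rab1b probe sets were highest in rat 10, with spans of 1.63-fold to 1.96-fold, and 3 of them were lowest in rat 1. Unlike Rab22a, the spread of Rab1b was shared by its probe sets. Of these, 1 carries the suffix that the array's maker gives to probe sets that may also bind transcripts of other genes, and 3 further probe sets that the annotation gives to several genes including a Rab were not used.

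Rab35, which acts in recycling to the plasma membrane, ran from 8.49 in rat 3 through 8.90 to 9.37 in rat 4 (SD 0.27). At the other end, Rab7b had an SD of 0.04 around a median of 4.01, but this lies at the filter, and Rab25, with an SD of 0.06 and a median of 4.66, lay near it. Well above the filter, Rab2b, of the early secretory pathway, had values of 10.96 to 11.10 log2 (median 11.03, SD 0.05). Rab12 had values of 11.74 to 11.92 (median 11.88, SD 0.05), and Rab11b, of recycling endosomes, 10.91 to 11.12 (median 11.05, SD 0.07). These 3 probe sets spanned 1.10-fold, 1.13-fold and 1.16-fold between the lowest and the highest rat. A second probe set of each gene spread more, with an SD of 0.15 for Rab2b, 0.09 for Rab12 and 0.21 for Rab11b. After quantile normalization the SD of the chosen Rab2b probe set was 0.07.

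By role, the 12 members above the filter that act at the endoplasmic reticulum and Golgi (Rab1a, Rab1b, Rab2a, Rab2b, Rab6a, Rab6b, Rab18, Rab30, Rab33a, Rab33b, Rab34 and Rab36) had a median SD of 0.13. Within this group the spread reached from 0.05 to 0.32. The 6 early endosome members (Rab5a, Rab5b, Rab5c, Rab21, Rab22a and Rab31) had a median SD of 0.15, and the 8 of recycling endosomes (Rab4a, Rab4b, Rab11a, Rab11b, Rab14, Rab15, Rab25 and Rab35) 0.12. Late endosome and lysosome members (Rab7a, Rab7b, Rab9a, Rab9b, Rab24 and Rab29) had 0.12, and those of exocytosis (Rab8a, Rab8b, Rab10, Rab13, Rab26 and Rab27b) 0.14. The 5 other members, Rab12, Rab23, Rab28, Rab40b and Rab40c, also had a median of 0.13. The medians of the 6 role groups thus lay between 0.12 and 0.15.

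The 9 members below the filter were Rab17, Rab19, Rab20, Rab27a, Rab32, Rab37, Rab38, Rab39a and Rab43. Their means ran from 2.03 to 3.52 log2 and their SDs from 0.02 to 0.08. Rab27a and Rab32, which serve melanosomes and other lysosome-related organelles, and Rab17, known from epithelial cells, are among them. Values this low do not show whether a gene was expressed, and they were not tested.

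**Figure D2:**
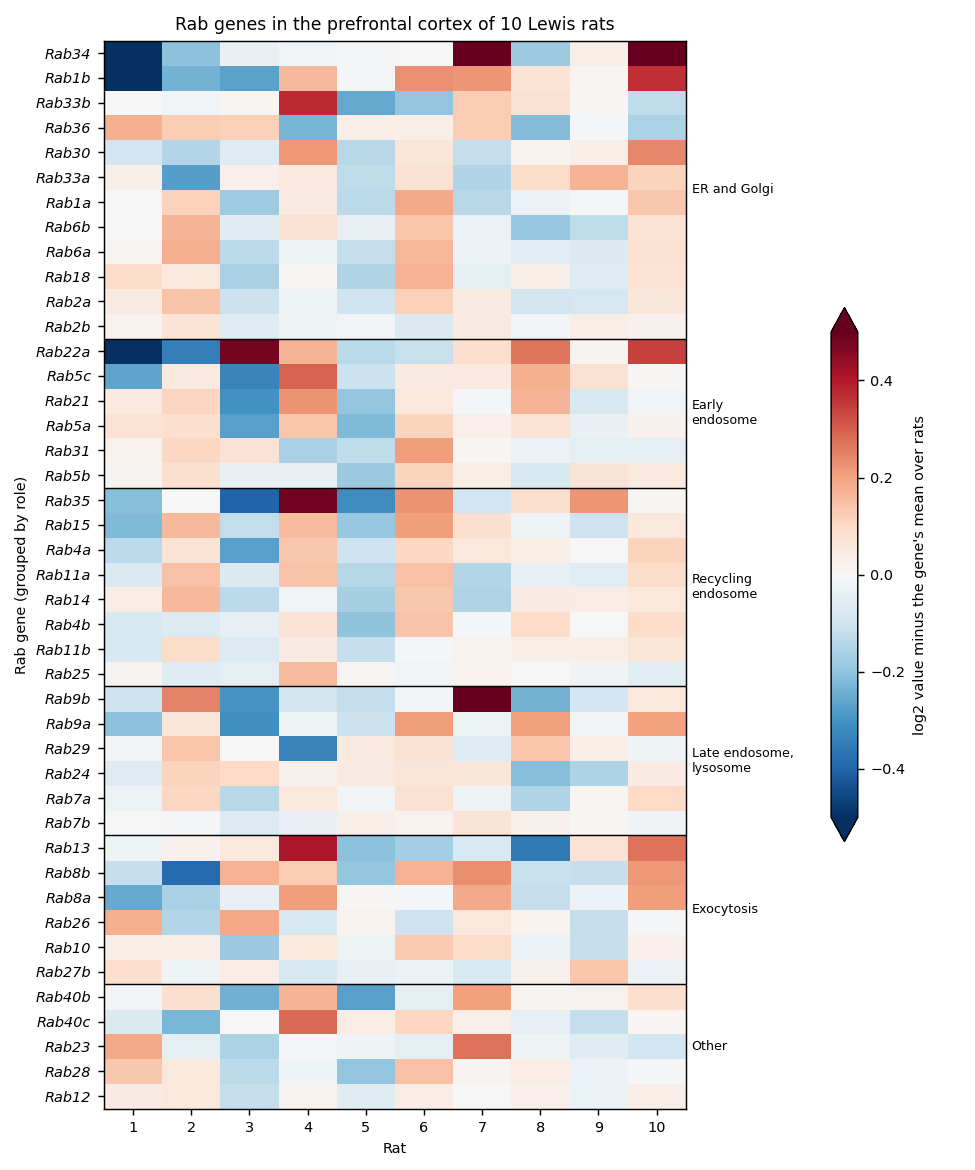
Each cell gives a Rab gene's log2 value in a rat minus that gene's mean over 10 rats, with genes grouped by role; red is above and blue below the mean, and the colour scale ends at 0.5 on either side. Rats 3 and 5 are mostly blue, and Rab22a, Rab34 and Rab1b are darkest blue in rat 1.

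The rats differed in their overall Rab level. The median deviation of the 43 members from their own means was -0.12 log2 in rat 5 and -0.07 in rat 3, and it was highest in rat 6, at 0.08. In rat 5, 8 of 43 members (18.6%) stood above their mean, against 33.9% of all tested genes, whose median deviation there was -0.04. In rat 3, 15 of 43 members had their lowest value, but all tested genes were shifted by as much, with a median deviation of -0.07. In rat 10, 32 of 43 members (74.4%) stood above their mean, against 49.8% of all tested genes. After quantile normalization 35 of 43 members stood above their mean in rat 10, against 60.7% of tested genes, 12 of 43 in rat 5, against 47.1%, and 7 of 43 in rat 1, against 37.7%. With arrays centred on their medians the counts were 40 of 43 in rat 10, against 76.9% of tested genes, and 1 of 43 in rat 5, against 16.9%, so part of these shifts was shared by the whole array. Rat 1 went from 20 of 43 in the deposited values to 7 of 43 under either scaling. Tested genes there went from 56.7% to 37.7% with quantile normalization and 34.1% with centring. Rat 2 had 28, 12 and 28 of 43 in the deposited, quantile and centred values, against 61.3%, 37.9% and 63.5% of tested genes. Rat 3 had 12, 21 and 12, against 23.0%, 42.6% and 28.1%. Rat 7 had 27, 31 and 19, against 58.5%, 65.8% and 42.0%. In rats 1, 2, 3 and 7 the members thus moved in the same direction as tested genes between scalings. Rat 10 was high and rat 5 low under all 3 sets of values.

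Slopes are given in log2 units for a score higher by 1 SD, fitted over all 15521 probe sets above the filter with Benjamini-Hochberg adjustment over all of them. By limma 0 of 43 Rab genes passed an adjusted p of 0.05 for startle, locomotion, sugar feeding, prepulse inhibition or plus maze, and 0% of all 15521 probe sets passed for each of the 5. Values are therefore given as slopes with SE, and no gene is said to have changed. The median SE of a Rab slope was 0.04 for each of the 4 scores of 10 rats, which limits what slopes could be resolved.

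**Figure D3:**
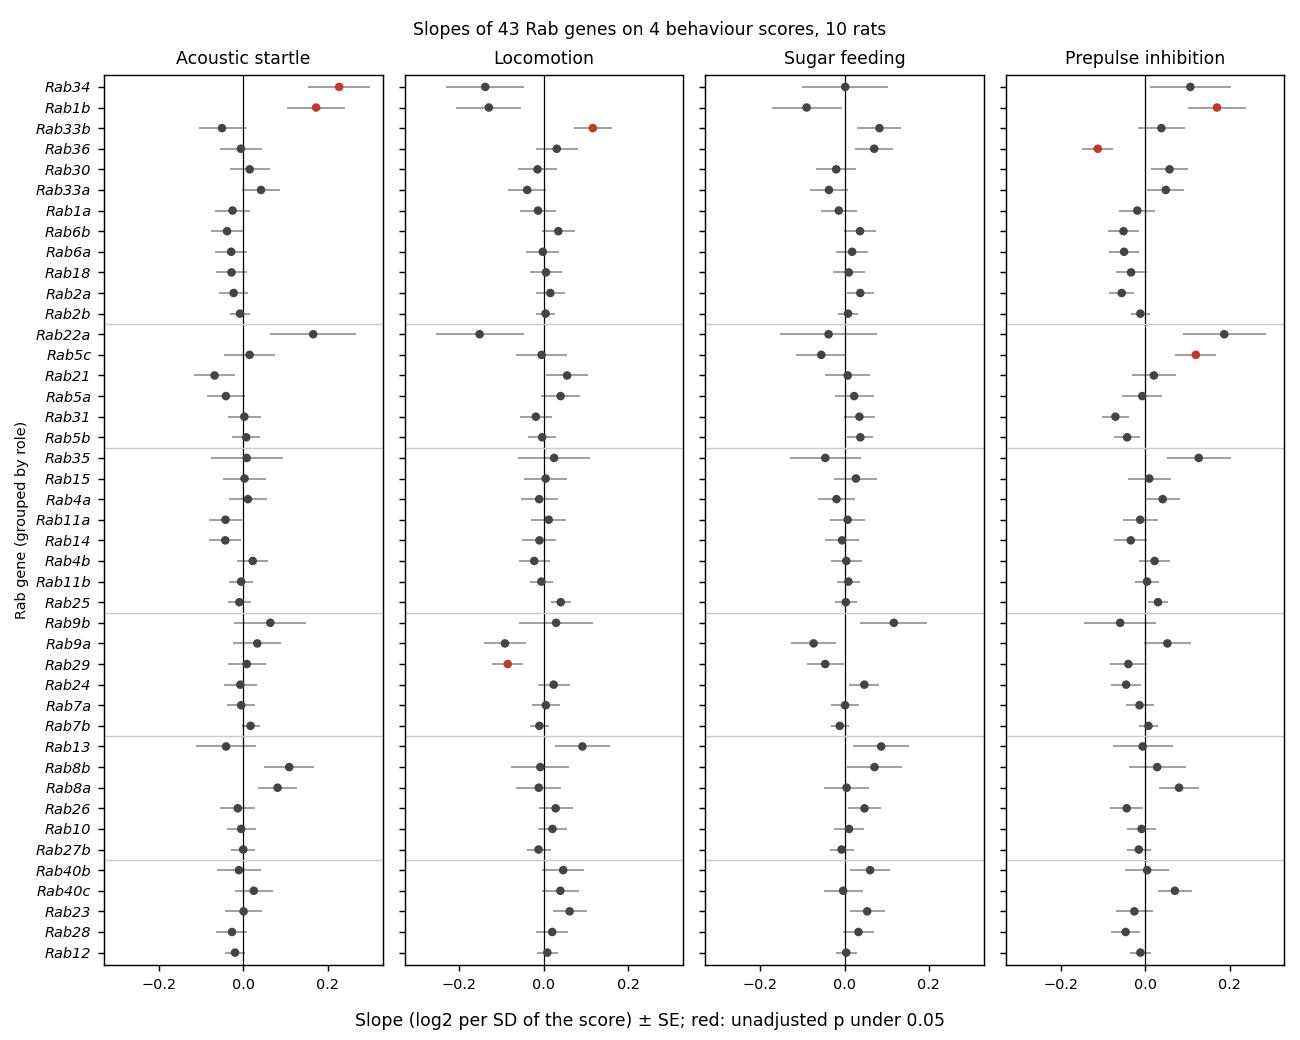
Points give the slope of each of 43 Rab genes on each of 4 scores (log2 per SD of the score, 10 rats) with bars of 1 SE, grouped by role; red points have an unadjusted p under 0.05. The red points are Rab34 and Rab1b for startle, Rab33b and Rab29 for locomotion, and Rab1b, Rab5c and Rab36 for prepulse inhibition, and 0 for sugar feeding.

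Startle scores had a mean of 682 (SD 208, n = 10). The two-sided unadjusted p was under 0.05 for 2 of 43 Rab genes, against 5.14% of tested genes, and 20 of 43 slopes were positive, against 41.3% of tested genes. The median slope was -0.0051 for the members and -0.0097 for all tested genes. After quantile normalization 34 of 43 members and 63.6% of tested genes had positive slopes, so the share of positive slopes depended on the scaling for both.

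Rab34 had the smallest p of the family for startle. The slope was 0.23 ± 0.07 (SE, n = 10) with p = 0.0114 and adjusted p = 0.808, which is 1.17-fold for a score higher by 1 SD. It was 4.51 and 4.90 log2 in rats 1 and 2, which had the lowest startle scores, and 5.61 in rat 7, which had the highest. Without rat 1 the slope was 0.15 and without rat 7 it was 0.18. With the striatal marker score in the model it was 0.18 ± 0.06 and with the myelin score 0.19 ± 0.08. With the 4 scores in 1 model it was 0.09.

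For Rab1b the startle slope was 0.17 ± 0.07 (p = 0.0303, adjusted p = 0.808). Its 3 other probe sets had slopes of 0.15, 0.12 and 0.06, all of the same sign. The value fell to 0.11 ± 0.06 with the myelin marker score in the model, to 0.10 without rat 1, and to 0.02 with the 4 scores in 1 model.

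Rab8b, of exocytosis and dendritic transport, had 0.11 ± 0.06 with startle, and its second probe set above the filter had 0.05. Without rat 2 the slope was 0.04. On the negative side stood Rab21, an endosomal Rab of integrin traffic, with -0.07 ± 0.05, and the recycling endosome genes Rab14 and Rab11a with -0.04 ± 0.04 each. All 4 Rab14 probe sets above the filter had negative slopes, the steepest -0.10 (p = 0.0519), and both of Rab11a did. The chosen probe sets moved to -0.02 for both without rat 2, and after quantile normalization to -0.02 for Rab14 and -0.0099 for Rab11a. The Rab21 slope was -0.03 after quantile normalization.

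**Figure D4:**
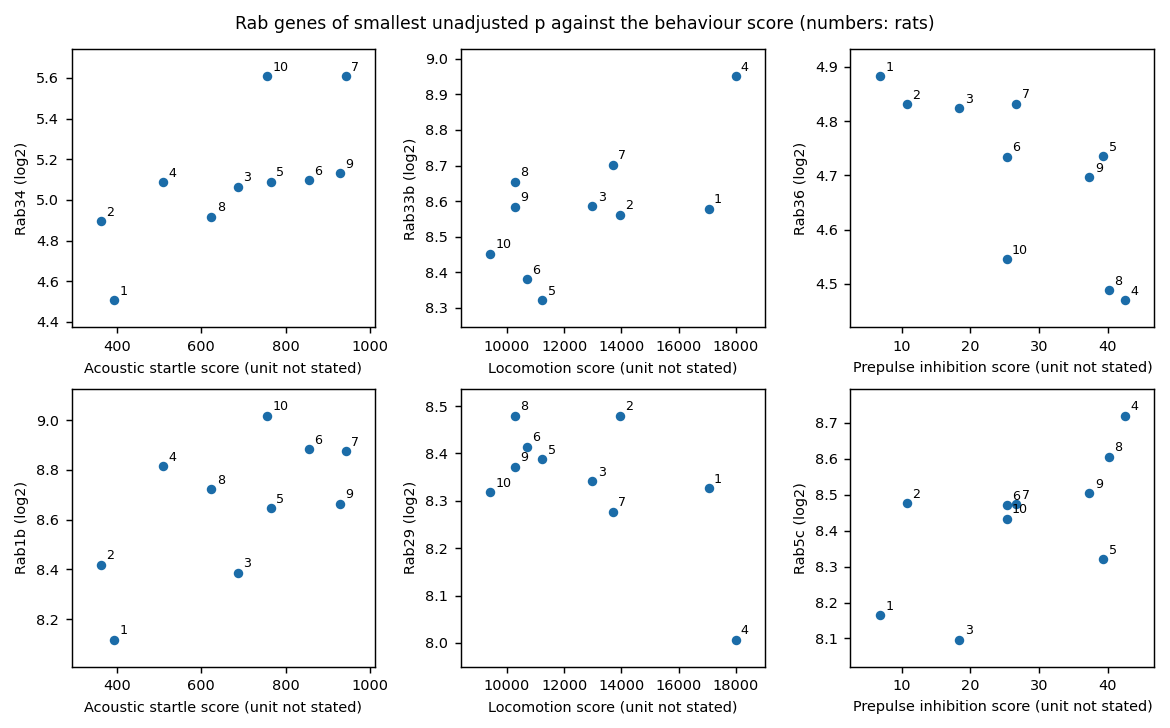
Each point is a rat, numbered, with its behaviour score (unit not stated) on the horizontal axis and the log2 value of a Rab gene on the vertical axis. Rat 4, with the highest locomotion score, has the highest Rab33b (8.95) and the lowest Rab29 (8.01), and Rab36 lies highest in rat 1 (4.88) and lowest in rat 4 (4.47).

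Locomotion scores had a mean of 12756 (SD 2944, n = 10). An unadjusted p under 0.05 was reached by 2 of 43 Rab genes and 2.89% of tested genes, and 23 of 43 slopes were positive, against 64.7% of tested genes. The median slope was 0.0041 for the members and 0.012 for tested genes. After quantile normalization 14 of 43 members and 42.8% of tested genes were positive, and with arrays centred on their medians 18 of 43 and 53.6%. The 5 members outside the 5 named roles (Rab12, Rab23, Rab28, Rab40b and Rab40c) all had positive slopes, from 0.01 to 0.06. They form a group only by being left over, and 0 of 5 had an unadjusted p under 0.05.

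Rab33b, a Golgi Rab that also takes part in autophagy, ran from 8.32 in rat 5 through a median of 8.58 to 8.95 in rat 4. Its slope with locomotion was 0.12 ± 0.05 (SE, n = 10; p = 0.0285, adjusted p = 1.00). Rat 4 stood alone at the top, and without it the slope was 0.05 (p = 0.317). With the 4 scores in 1 model the slope turned to -0.0085. Rab25 had 0.04 ± 0.02, and 0.0076 without rat 4, and Rab23, a Rab of the ciliary hedgehog pathway, 0.06 ± 0.04. With the 4 scores in 1 model Rab25 had 0.06 and Rab23 0.12.

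Rab29, which can recruit the kinase LRRK2 to membranes, ran from 8.01 through a median of 8.36 to 8.48. Its slope with locomotion was -0.09 ± 0.04 (p = 0.0434, adjusted p = 1.00). The value in rat 4 lay apart from the 9 others, which were at 8.28 to 8.48, and without rat 4 the slope was -0.02 (p = 0.589). Rab9a, which returns receptors from late endosomes to the Golgi, had -0.09 ± 0.05, and Rab1b had -0.13 ± 0.08, with all 4 probe sets negative. Without rat 1 the Rab1b slope was -0.04, and without rat 4 it was -0.23. That of Rab23 was 0.03 without rat 1.

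Sugar feeding scores had a mean of 1.25 (SD 0.72, n = 10). An unadjusted p under 0.05 was reached by 0 of 43 Rab genes in the limma fit, against 2.19% of tested genes, and 29 of 43 slopes were positive, against 61.4% of tested genes. The median slope was 0.0077 for the members and 0.010 for tested genes. After quantile normalization 18 of 43 members and 48.7% of tested genes were positive. Without rat 5, whose sugar feeding score was 0, 17 of 43 members and 48.4% of tested genes were.

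For sugar feeding the slopes of smallest p were 0.08 ± 0.05 for Rab33b (SE, n = 10; p = 0.142), 0.07 ± 0.05 for Rab36 and 0.12 ± 0.08 for Rab9b. Without rat 5 the Rab33b slope was 0.04 (p = 0.517), and with the 4 scores in 1 model it was 0.20. The Rab9b slope was 0.02 without rat 7, the rat of highest sugar score and highest Rab9b. Negative slopes were -0.07 ± 0.05 for Rab9a, -0.09 ± 0.08 for Rab1b and -0.05 ± 0.04 for Rab29. Without rat 5 the Rab9a slope was -0.13, and without rat 3 -0.04. The Rab1b slope was -0.03 without rat 1 and -0.15 without rat 7. The adjusted p of all 6 was 1.00.

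Prepulse inhibition scores had a mean of 27.3 (SD 12.6, n = 10). An unadjusted p under 0.05 was reached by 3 of 43 Rab genes and 6.08% of tested genes, and 20 of 43 slopes were positive, against 44.2% of tested genes. After quantile normalization 30 of 43 members and 61.9% of tested genes were positive. Of the 8 recycling endosome genes 6 had positive slopes, from -0.03 to 0.13 over all 8, and of the 6 late endosome genes 2 did.

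Rab36, a Golgi-associated Rab, had the smallest p of the family for this score, with -0.11 ± 0.04 (SE, n = 10; p = 0.0116, adjusted p = 0.630). Its lowest value was 4.47, its median 4.73 and its highest 4.88 log2, a 1.33-fold span, close above the filter. Unadjusted p stayed between 0.00561 and 0.0434 in the 10 fits that each left out 1 rat, with slopes of -0.13 to -0.09. With the 4 scores in 1 model the slope was -0.20. Rab36 has 1 probe set, so no second measure of the gene was at hand.

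Rab5c, of early endosomes, ran from 8.10 in rat 3 through a median of 8.47 to 8.72 in rat 4, and its slope with prepulse inhibition was 0.12 ± 0.05 (p = 0.0319, adjusted p = 0.640). It was 0.09 with the myelin marker score in the model, 0.09 without rat 4 and 0.09 without rat 1. With the 4 scores in 1 model it was larger, at 0.21. Its paralogs Rab5a and Rab5b had slopes of -0.01 ± 0.05 and -0.04 ± 0.03, values named outside the rule after they were seen. The other Rab5b probe sets above the filter had positive slopes of 0.10, 0.04 and 0.01, and that of Rab5a had -0.04. The difference between paralogs was not tested.

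With prepulse inhibition the Rab1b slope was 0.17 ± 0.07 (p = 0.0329, adjusted p = 0.640), and its 3 other probe sets had 0.10, 0.09 and 0.04. It was 0.08 without rat 1, in which Rab1b and prepulse inhibition were both lowest, and 0.09 ± 0.06 with the myelin score in the model. With the 4 scores in 1 model it was 0.23. Rab1b was thus among the named genes for 4 scores, with positive slopes for startle and prepulse inhibition and negative ones for locomotion and sugar feeding. The scores are measured on the same rats, so these are not separate results.

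Rab22a had 0.19 ± 0.10 with prepulse inhibition, while its 2 other probe sets had -0.07 and -0.06, and the mean of its probe sets gave 0.02. Without rat 1 the Rab22a slope was 0.04, and with the 4 scores in 1 model it was 0.49. Rab31, another early endosome member, had -0.07 ± 0.03 (p = 0.0506), and Rab2a, of the early secretory pathway, -0.06 ± 0.03, with its second probe set at -0.05.

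The plus maze score, of 7 rats, had a mean of 14.4 (SD 21.5), and rat 5 lay far from the rest at 60.3, with the next at 20.2. Positive slopes were found in 6 of 43 Rab genes, against 32.6% of tested genes. The median Rab slope was -0.05, against -0.02 for tested genes. An unadjusted p under 0.05 was reached by 4 of 43 Rab genes and 7.69% of tested genes, all 4 negative. Of the 652 tested genes that reached it, 578 were negative, so this direction was not particular to the Rab genes.

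These values rested on rat 5, which had the lowest median Rab deviation in the deposited and the centred values. After quantile normalization rat 1 was lower, at -0.06 against -0.04. Without rat 5, 20 of 43 slopes were positive, against 52.3% of tested genes, the median was -0.00081, and 0 of 43 Rab genes had an unadjusted p under 0.05. After quantile normalization 14 of 43 were positive, against 44.5% of tested genes, and with arrays centred on their medians 2 of 43, against 19.0%.

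Rab40b, of a subfamily that joins ubiquitin ligase complexes, had -0.13 ± 0.04 with the plus maze score (limma adjusted p = 0.680) and -0.00081 without rat 5, where it was itself the median member. Its second probe set had 0.02. Rab5b, of early endosomes, had -0.08 ± 0.03 (limma adjusted p = 0.684), but 3 other probe sets had 0.07, 0.05 and 0.05. Rab5a and Rab28, named after their values were seen, had -0.09 ± 0.04 and -0.08 ± 0.03, but the second Rab5a probe set had 0.01. The largest positive slopes by the rule were 0.05 ± 0.06 for Rab40c and 0.02 ± 0.04 for Rab25. Leaving out 1 rat gave 0.03 (rat 2) to 0.12 (rat 5) for Rab40c and 0.01 (rat 2) to 0.07 (rat 5) for Rab25, and after quantile normalization Rab25 had 7.3e-05.

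**Figure D5:**
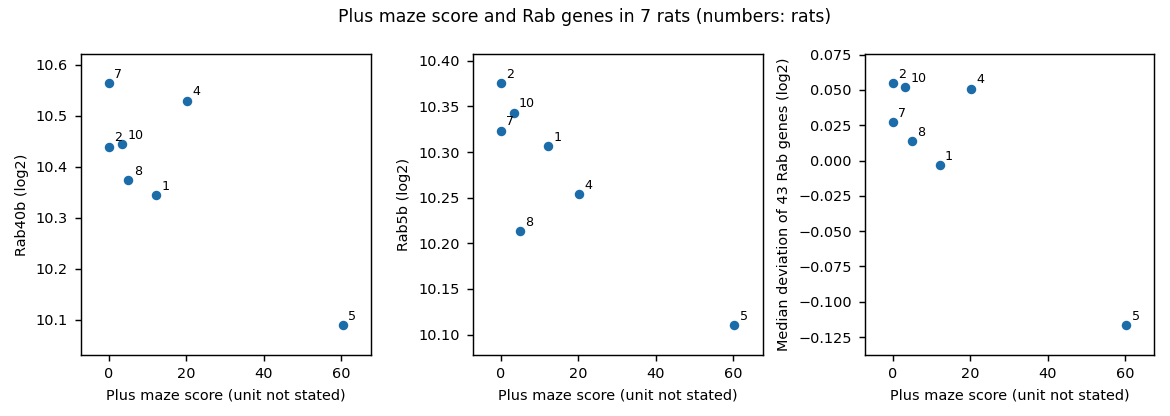
Each point is 1 of 7 rats, numbered, with the plus maze score (unit not stated) against the log2 value of Rab40b, that of Rab5b, and the median deviation of 43 Rab genes from their means. Rat 5 has the highest score, 60.3, and the lowest value in all 3 panels, and the other rats lie at scores of 0 to 20.2.

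How far a member's probe sets went together limits these slopes. Of the 43 members, 19 had several probe sets above the filter. All probe sets of a member had the same sign in 11 of 19 for startle, 9 of 19 for locomotion, 6 of 19 for sugar feeding and 13 of 19 for prepulse inhibition, and in 7 of 19 for the plus maze score.

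Other genes of the Rab cycle were read from the same fits. Those named here and among the effectors were picked by no rule, after their values were seen. Of 59 listed regulators, that is dissociation inhibitors, prenylation enzymes, exchange factors and GTPase-activating proteins, 36 were tested, and 0 passed the adjusted threshold for any score. For prepulse inhibition 13 of 36 had positive slopes, against 44.2% of tested genes, and 3 had an unadjusted p under 0.05 (8.33%, against 6.08%), all negative. These were Rab3gap2 at -0.11 ± 0.04, a subunit of the Rab3 GTPase-activating complex that also acts on Rab18, Sgsm1 at -0.12 ± 0.04 and the exchange factor gene Dennd4c at -0.13 ± 0.05. Among tested genes, 319 of the 516 with such a p for prepulse inhibition were negative. For locomotion 27 of 36 (75.0%) were positive, against 64.7% of tested genes, with Rin2, a Rab5 exchange factor, at 0.11 ± 0.04 and Rgp1, of the Rab6 exchange factor, at 0.09 ± 0.03. These were the 2 of 36 with an unadjusted p under 0.05 for locomotion (5.56%, against 2.89% of tested genes).

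Of 43 listed effectors 30 were tested, and 0 passed in the limma fits. For prepulse inhibition 6 of 30 (20.0%) had positive slopes, against 44.2% of tested genes, and for sugar feeding 26 of 30 (86.7%), against 61.4%. After quantile normalization, a setting added for these lists after the data were seen, the counts were 13 of 30, against 61.9% of tested genes, and 19 of 30, against 48.7%. Uso1, the tether that Rab1 recruits at the Golgi, had -0.09 ± 0.03 with prepulse inhibition. For this score 2 of 30 effectors had an unadjusted p under 0.05 (6.67%, against 6.08% of tested genes). The median slope with prepulse inhibition was -0.03 for effectors and -0.02 for regulators, against -0.0067 for the Rab genes and -0.0063 for all tested genes. With sugar feeding it was 0.03, 0.02, 0.0077 and 0.010 in the same order. For startle 8 of 30 effectors and 11 of 36 regulators had positive slopes, against 41.3% of tested genes. For the plus maze score these were 8 of 30 (26.7%) and 13 of 36 (36.1%), near the 32.6% of tested genes. After quantile normalization they were 14 of 30 and 20 of 36 for startle, against 63.6% of tested genes. For the plus maze score they were then 11 of 30 and 23 of 36, against 44.5%. With arrays centred on their medians, 2 of 30 effectors were positive for the plus maze score, against 19.0% of tested genes. After quantile normalization regulators had 19 of 36 positive for locomotion, against 42.8% of tested genes, and 18 of 36 for prepulse inhibition, against 61.9%. Bicd2, an adaptor between Rab6 vesicles and dynein, had 0.13 ± 0.03 with sugar feeding (p = 0.0018, limma adjusted p = 1.00). It was the 1 of 30 effectors with an unadjusted p under 0.05 for sugar feeding (3.33%, against 2.19% of tested genes). The Rab3 genes had 3 of 4 members tested, with slopes of 0.03 to 0.08 for prepulse inhibition, and 0 of 3 passed for any score.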

How the data were processed

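Expression was measured on 1 array for each of 10 rats. The deposited values are log2 summaries per probe set, made by the authors with GCRMA under R 2.6.2, per the submitters' processing notes. The sources used here give no GCRMA version. Of 31099 probe sets 57 controls were left out. The platform annotation gave 1 symbol for 20826, several for 436 and none for 9780. The 50% of highest mean (15521) were tested with limma 3.58.1 in R 4.3.3 (lmFit, eBayes; log2 value on the score scaled to SD 1; two-sided; Benjamini-Hochberg over all 15521; threshold 0.05), and the fit was tested on simulated data. The number of arrays limits precision. A marker score is the mean centred log2 value of the listed markers.

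Named for each score were the 3 members of smallest p in each direction (2 for the plus maze), and for spread the 5 of largest and 5 of smallest SD. The members and lists were chosen with earlier results of these data known. Alternatives were other filters and scalings, all probe sets of a gene, ranks of the score, eBayes options, covariates and leaving out each rat. Protein sequences were not used here.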

Additional observations from a re-analysis of the deposited data

Results flagged for a closer look

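In 4 of 52 Rab genes a single rat lay far from the 9 others, with a gap to the nearest rat that was larger, as a share of the whole range, than Dixon's critical value for 10 samples. Such a gap is met by chance in about 1 in 20 groups, and 14.2% of all 14217 named genes on these arrays met it, against 7.69% of the members. Rab29 was 8.01 log2 in rat 4 and 8.28 to 8.48 in the others. Rab25 was 4.83 in rat 4 and 4.61 to 4.69 in the others. Below the filter, Rab38 was 2.12 in rat 9 against 1.98 to 2.05, and Rab32 was 3.01 in rat 3 against 3.08 to 3.15. Rat 4 also had the highest locomotion score, and Rab25 and Rab29 were both named for that score.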

How the results depend on the processing

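No Rab gene passed the adjusted threshold in any of the 98 fits under an alternative, 5 scores together, and the smallest adjusted p of a named gene was 0.327. The median slope of the members moved by more than the members' median SE in 2 of 98. These were prepulse inhibition with the 4 scores in 1 model, where it was 0.040, and the plus maze score, where leaving out 1 rat gave -0.062 to -0.00081, the latter without rat 5. That SE is of a single gene's slope, so a median near 0 could change sign without counting as moved. Quantile normalization did this for startle (-0.0051 to 0.024) and locomotion (0.0041 to -0.018). It also did so for prepulse inhibition (-0.0067 to 0.023) and sugar feeding (0.0077 to -0.0075). Of 552 alternative values for 28 named slopes, 5 changed sign. The 28 were picked by smallest p in these data and the alternatives reuse the same rats, so a low count was partly built in. With the 4 scores in 1 model, Rab33b had -0.0085 for locomotion, and Rab36, Rab9a and Rab1b had -0.10, 0.060 and 0.17 for sugar feeding. With the mean of all probe sets Rab5b had 0.023 for the plus maze score. The cause was not tested. Covariate fits were not planned for the plus maze score, and members below the stricter filter have no value there. No paired analysis was possible because the labels give 1 array per animal and no second condition.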
